A study of Rattus norvegicus with 6 samples.

Results

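The cilium genes of the array were followed across the hippocampus of adult male Wistar rats, an outbred laboratory strain kept on 12 h of light and 12 h of darkness. At 2 months of age the animals were castrated by orchidectomy or underwent a sham operation that left the testes in place, and the hippocampus was collected 2 weeks later. The labels name 3 biological replicates for each of these groups, and no other treatment or genotype apart from the anaesthesia that all animals received. From each sample 200 ng of RNA was labelled with Cy3 and put on its own 1-colour Agilent array, which makes 6 arrays. Members were the non-control probes whose gene symbol was Foxj1 or began as those of the axonemal dyneins (Dnah, Dnai, Dnal), tektins (Tekt), radial spoke heads (Rsph), sperm-associated antigens (Spag), sperm flagellar proteins (Spef), intraflagellar transport proteins (Ift) or Bardet-Biedl proteins (Bbs). Because the array files used here carry accessions in place of symbols, the symbols came from RefSeq (assembly GRCr8). The rule gave 57 of 30367 probes and 53 of 15154 named genes. Of these genes 27 belong to the motile cilium, 21 to intraflagellar transport (IFT) and the BBS proteins, and 5 are Spag genes to which no axonemal role was assigned.

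A cilium is a microtubule core, the axoneme, that projects from the cell surface. Motile cilia beat through dynein arms, radial spokes and a central apparatus, and in the brain they cover the ependymal cells that line the ventricles and stand in tufts on choroid plexus epithelium. Neurons and astrocytes carry a solitary primary cilium without this beating machinery, which serves as a platform for receptors such as the somatostatin receptor Sstr3. IFT trains carry cargo along the axoneme and the BBSome moves membrane proteins in and out, so these genes serve both kinds of cilium and cannot be assigned to either.

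RefSeq promoter sequences (GRCr8, 250 bases before to 50 after the gene start) were held for 41 of the 53 members. The letters GTTGCC, a half-site of the X-box that is bound by RFX factors, occurred on either strand in 8 of 21 motile promoters (38.1%) and in 8 of 16 IFT and BBS promoters (50%), against 12.2% of all 27457 promoters. A palindromic X-box was searched in 1 form only, with a spacer of fixed length and fixed letters on each side of it. This form occurred in 3 of 21 and 3 of 16, against 1.86% of all. It can overlap the half-site and did so in Ift56, Spag6 and Spag6l. Inverted repeats with another spacer length or other letters beside it were not counted, among them those in the Dnai2 and Tekt2 windows below. The forkhead letters TGTTTA occurred on either strand in 5 of 21 and 1 of 16, against 13.7% of all. These are matches of letters and do not show binding. The windows shown are the 80 bases before the gene start of the 7 motile, IFT and BBS members whose half-site lies there. They are printed 5′ to 3′ on the gene's strand with the match, GTTGCC or its reverse complement GGCAAC, in capitals, so that the letters found in both classes can be compared.
Dnai2, chr10:100258942-100259021, plus strand: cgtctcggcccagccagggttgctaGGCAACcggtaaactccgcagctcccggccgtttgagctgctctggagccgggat
Spag6l, chr11:97677760-97677839, plus strand: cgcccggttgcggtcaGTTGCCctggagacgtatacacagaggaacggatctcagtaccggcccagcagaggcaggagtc
Tekt1, chr10:57479122-57479201, minus strand: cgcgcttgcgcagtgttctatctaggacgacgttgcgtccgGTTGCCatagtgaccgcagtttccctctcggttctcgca
Tekt2, chr5:143907725-143907804, minus strand: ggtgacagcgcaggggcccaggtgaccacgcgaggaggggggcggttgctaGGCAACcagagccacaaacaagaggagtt
Bbs5, chr3:74818560-74818639, plus strand: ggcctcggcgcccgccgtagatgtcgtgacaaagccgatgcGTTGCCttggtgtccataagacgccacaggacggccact
Ift81, chr12:39618542-39618621, plus strand: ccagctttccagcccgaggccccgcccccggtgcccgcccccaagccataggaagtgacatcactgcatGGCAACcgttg
Ift88, chr15:35688907-35688986, plus strand: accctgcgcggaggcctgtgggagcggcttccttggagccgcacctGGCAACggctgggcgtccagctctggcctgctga

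The array labelled sham 2 stood apart from the rest. Its correlation with each other array over probes lay between 0.876 and 0.880, and the correlations among the remaining 5 lay between 0.983 and 0.993. On it all 9 markers of glutamatergic neurons were lower, and 12 of 13 markers of choroid plexus epithelium were higher, by over 1 log2 unit, so its markers go against the hippocampal label. Per array 23788 to 26176 probes were well above background, and precision is limited by how few arrays there are. A level here is the log2 intensity of the brightest probe of a gene after the array's 75th percentile was subtracted, and a difference of 1 log2 unit is a 2-fold change. Because sham 2 is 1 array, its differences from the median of the other 5 are descriptions without a test, and the groups are compared with and without it. In whole tissue, fewer cells of a type and less RNA per cell cannot be told apart.

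On sham 2 the motile cilium genes were high as a group, and the IFT and BBS genes were high by smaller amounts. Of 26 motile genes well above background on at least 1 array, 21 were higher by over 1 log2 unit and 3 were lower, while 22.2% of all 13780 such genes were higher and 24.2% lower. The motile median difference was 4.24 (SD over genes 2.79), and that of all genes was 0.04. Of the 21 IFT and BBS genes 16 were higher by over 1 log2 unit and 0 were lower, with a median of 1.55 (SD over genes 0.70) and a range from -0.08 to 2.60. Differences above 4 log2 units were found in 14 motile genes, 7 of them above 5, and in 0 IFT and BBS genes. These last counts depend on the background correction. With normexp background correction Dnai3 fell from 5.71 to 3.75 and Dnai2 from 5.27 to 3.36. Rsph14 fell from 4.82 to 3.30 and Dnah1 from 4.46 to 3.04, while Foxj1 moved from 5.86 to 5.73. With it 20 motile genes were still higher by over 1 log2 unit and 2 were lower. The 27th motile gene, Spag6, did not rise well above background on any of the 6 arrays, and its probe could share signal with its near-copy Spag6l.

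**Figure D1:**
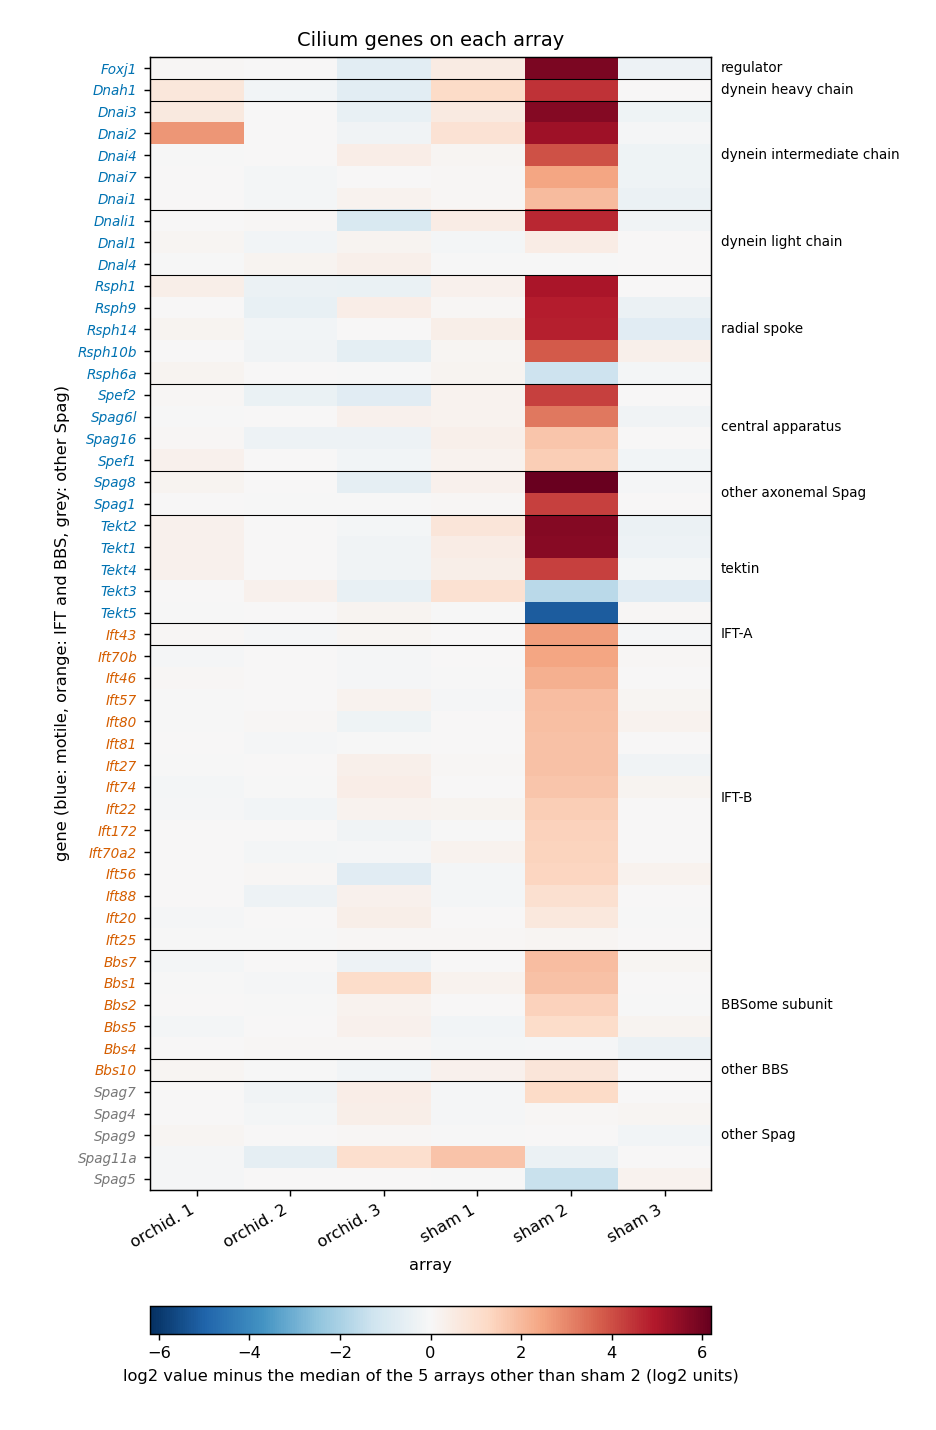
Each cell is the log2 level of a cilium gene (rows, by role) on an array (columns) minus its median over the 5 arrays other than sham 2, in log2 units. The column of sham 2 carries the strong colours, high for most motile genes (Foxj1 5.86) and moderate for most IFT and BBS genes. It is low for Tekt5, Tekt3, Spag5 and Rsph6a.

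Foxj1, the transcription factor that switches on motile cilium genes, had levels of -1.99, -2.07 and -2.73 on the orchidectomized arrays and -1.54, 3.79 and -2.40 on sham 1 to 3. Sham 2 was high, at 58.0 times the median of the other 5, and the orchidectomized levels overlapped those of sham 1 and sham 3. Tp73, which acts above Foxj1 in multiciliated cells and lies outside the rule, was 4.37 log2 units higher on sham 2.

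The dynein arms power the beat. Dnah1, an inner arm heavy chain, had levels of -5.02, -5.90 and -6.41 on the orchidectomized arrays and -4.55, -1.27 and -5.73 on sham 1 to 3. The groups overlapped, and sham 2 was high by 4.46. All 5 intermediate chain genes were higher on sham 2. Dnai3 had -5.53, -6.14 and -6.59 on the orchidectomized arrays and -5.58, -0.43 and -6.40 on sham 1 to 3, a difference of 5.71. Dnai2, an outer arm chain, had -2.86, -5.59 and -5.82 on the orchidectomized arrays and -4.69, -0.33 and -5.65 on sham 1 to 3, a difference of 5.27. Both were high on sham 2, and Dnai2 was also higher on orchidectomized 1 than on the rest of its group. Dnai1, another outer arm chain, had -3.04, -3.17 and -2.80 on the orchidectomized arrays and -2.98, -1.10 and -3.41 on sham 1 to 3 and differed least of the intermediate chains, by 1.94. The light chain genes differed among themselves. Dnali1, an inner arm light intermediate chain, had -1.60, -1.54 and -2.52 on the orchidectomized arrays and -1.16, 3.06 and -1.83 on sham 1 to 3, with sham 2 high by 4.66. Dnal1 had -2.61, -2.88 and -2.54 on the orchidectomized arrays and -2.85, -2.28 and -2.73 on sham 1 to 3, and Dnal4 had 2.73, 2.88 and 3.05 on the orchidectomized arrays and 2.69, 2.70 and 2.73 on sham 1 to 3. For Dnal1 sham 2 was the highest array but by 0.45 only, and for Dnal4 it lay within the range of the others.

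Radial spokes pass signals from the central apparatus to the dynein arms. The spoke head gene Rsph1 had -0.92, -1.66 and -1.74 on the orchidectomized arrays and -1.06, 3.75 and -1.31 on sham 1 to 3. Rsph9, also of the spoke head, had -0.74, -1.19 and -0.34 on the orchidectomized arrays and -0.66, 4.15 and -1.11 on sham 1 to 3. In both genes sham 2 was the high array, by 5.05 and 4.89, and the other arrays of the groups overlapped. Rsph6a, a paralog known from sperm flagella, had -1.40, -1.57 and -1.60 on the orchidectomized arrays and -1.41, -2.86 and -1.67 on sham 1 to 3. It was low on sham 2, by -1.30, whereas Rsph14 and Rsph10b were high there by 4.82 and 3.80.

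Central apparatus genes were all higher on sham 2 where they could be measured, by varying amounts. Spef2, which is needed to build the central apparatus, had -4.07, -4.54 and -4.85 on the orchidectomized arrays and -3.91, 0.12 and -4.13 on sham 1 to 3, a difference of 4.25, and its other probe gave 4.27. Spag6l had -0.89, -0.86 and -0.58 on the orchidectomized arrays and -0.66, 2.39 and -1.06 on sham 1 to 3, a difference of 3.26, and its dimmer probe gave 1.76. Sham 2 was the high array for both genes and both probes. Spef1 had 0.84, 0.56 and 0.38 on the orchidectomized arrays and 0.80, 2.11 and 0.39 on sham 1 to 3, the smallest difference of this role at 1.55. Spag16 had -6.67, -7.04 and -7.06 on the orchidectomized arrays and -6.42, -5.04 and -6.74 on sham 1 to 3. Sham 2 was higher by 1.70 and the other arrays overlapped. These levels were low, and with normexp background correction the difference of Spag16 was 0.49.

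Spag8, whose protein lies inside axonemal microtubules, showed the greatest difference of the members, 6.12, with levels of -3.60, -3.77 and -4.34 on the orchidectomized arrays and -3.53, 2.34 and -3.84 on sham 1 to 3. Spag1, a dynein assembly factor, had -2.50, -2.50 and -2.51 on the orchidectomized arrays and -2.44, 1.74 and -2.48 on sham 1 to 3. Sham 2 was high for both, and the remaining arrays of Spag1 lay close together.

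Tektins are filament proteins of axonemal microtubules, and their probes went in opposite directions on sham 2. Tekt2 had -3.47, -3.73 and -3.86 on the orchidectomized arrays and -2.99, 1.98 and -4.09 on sham 1 to 3, and Tekt1 had -4.24, -4.51 and -4.73 on the orchidectomized arrays and -4.04, 1.14 and -4.82 on sham 1 to 3. These were high on sham 2 by 5.71 and 5.65, and Tekt4 by 4.25. Tekt3 had -4.69, -4.40 and -5.14 on the orchidectomized arrays and -3.76, -6.38 and -5.40 on sham 1 to 3, with sham 2 the lowest array. Tekt5 had -4.50, -4.50 and -4.32 on the orchidectomized arrays and -4.51, -9.67 and -4.44 on sham 1 to 3, and on sham 2 it was not well above background. The mean of the other 5 arrays was at least 8.34-fold above the lowest signal well above background on sham 2. Tekt5 is known mainly from sperm. With normexp background correction the difference of Tekt3 moved from -1.69 to -0.61 and that of Tekt5 from -5.16 to -1.25. The 8.34-fold bound was taken without normexp, and its size depends on the background correction.

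**Figure D2:**
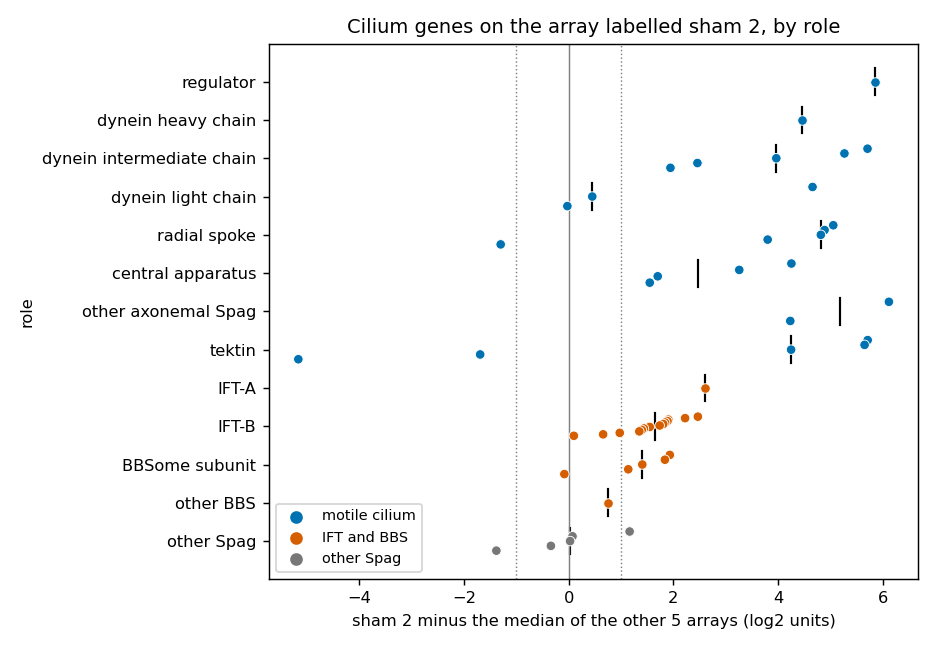
Each point is a cilium gene, placed by role and by its level on sham 2 minus the median of the other 5 arrays (log2 units); ticks are role medians and dotted lines mark 1 log2 unit either way. Motile genes reach 6.12, while the highest IFT or BBS gene, Ift43, is at 2.60.

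Among the IFT genes, Ift43, of the retrograde IFT-A complex, had -3.28, -3.43 and -3.21 on the orchidectomized arrays and -3.34, -0.74 and -3.41 on sham 1 to 3. Sham 2 was high by 2.60, the greatest difference of the IFT and BBS genes. Of 14 genes of the IFT-B complex, which drives anterograde transport, 11 were higher by over 1 log2 unit, with a median of 1.64. Ift70b had 0.17, 0.22 and 0.14 on the orchidectomized arrays and 0.24, 2.69 and 0.30 on sham 1 to 3, and Ift46 had -0.42, -0.50 and -0.56 on the orchidectomized arrays and -0.54, 1.72 and -0.46 on sham 1 to 3. For both, sham 2 was high and the other 5 arrays lay close together. Ift25, which serves hedgehog signalling in the cilium, had -1.19, -1.17 and -1.11 on the orchidectomized arrays and -1.11, -1.06 and -1.16 on sham 1 to 3, so that sham 2 was the highest array by a small margin. Ift88, a core subunit whose loss abolishes cilia, differed by 0.98. Ift70a2 and Ift70b are near-copies whose probes could share signal.

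Of the 5 BBSome subunit genes 4 were higher on sham 2 by over 1 log2 unit. Bbs7 had -2.05, -1.92 and -2.25 on the orchidectomized arrays and -1.90, 0.01 and -1.81 on sham 1 to 3, and Bbs1 had -2.62, -2.64 and -1.43 on the orchidectomized arrays and -2.34, -0.74 and -2.58 on sham 1 to 3. Sham 2 was the highest array in both, and for this Bbs1 probe orchidectomized 3 lay between it and the rest. On the dimmer Bbs1 probe sham 2 was also the highest, at -2.90, but orchidectomized 3 was the lowest, at -6.51. Bbs4 had 1.24, 1.32 and 1.31 on the orchidectomized arrays and 1.12, 1.16 and 0.86 on sham 1 to 3. Sham 2 lay inside the range of the others. The difference of -0.08 turned to 0.20 with median centring, as that of Dnal4 turned from -0.03 to 0.20. The dimmer Bbs4 probe differed by 0.16. Bbs10, a chaperonin-like gene of BBSome assembly, had -1.95, -2.13 and -2.25 on the orchidectomized arrays and -1.81, -1.34 and -2.09 on sham 1 to 3, with sham 2 high by 0.75.

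The 5 Spag genes without an axonemal role had a median difference of 0.03 on sham 2. Spag5, of the mitotic spindle, had -1.46, -1.40 and -1.39 on the orchidectomized arrays and -1.42, -2.78 and -1.19 on sham 1 to 3, and Spag7 had 3.38, 3.17 and 3.78 on the orchidectomized arrays and 3.30, 4.54 and 3.38 on sham 1 to 3. Sham 2 was low for Spag5 and high for Spag7. Spag9, a scaffold of JNK signalling, had -0.68, -0.82 and -0.73 on the orchidectomized arrays and -0.82, -0.79 and -0.98 on sham 1 to 3, with sham 2 inside the range of the others. Spag4 differed by 0.07, and Spag11a, well above background on 2 arrays, was not tested between groups.

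Cilium genes outside the rule were counted in the same way. Of 31 further motile genes 29 were higher on sham 2 by over 1 log2 unit and 0 were lower, with a median of 3.88. Among them Ccdc40, part of the axonemal ruler, was higher by 5.68 and the dynein assembly factor gene Zmynd10 by 5.20. Of 43 further genes of IFT, BBS, signalling and the transition zone, 19 were higher and 6 lower, with a median of 0.70. The 15 primary cilium signalling genes among these had a median of -0.28, with 3 higher and 5 lower. Sstr3 was at -5.87 on sham 2 and at 0.54 to 0.74 on the other arrays. Adcy3, the adenylyl cyclase of neuronal cilia, was lower on sham 2 by 4.03 log2 units (-6.07 against a range of -2.32 to -1.54), while Smo, the hedgehog signal transducer, was higher by 3.12.

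Marker lists of other cell types moved on the same array. The median level of 13 choroid plexus markers was 5.08 on sham 2 and -4.91 to -3.47 on the other arrays, and that of 9 glutamatergic neuron markers was -6.81 against 0.26 to 0.78. Lower by over 1 log2 unit were 6 of 7 astrocyte and 7 of 7 oligodendrocyte markers. Of 8 ependymal markers outside the rule 3 were higher by over 1 log2 unit and 0 lower. Those 3 were Dynlrb2 at 5.68, Calml4 at 5.17 and Enkur, also counted among the further motile genes, at 4.44, and the others ran from -0.61 for Mia to 0.71 for Sntn. The part of these cell types in the cilium values was not tested.

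**Figure D3:**
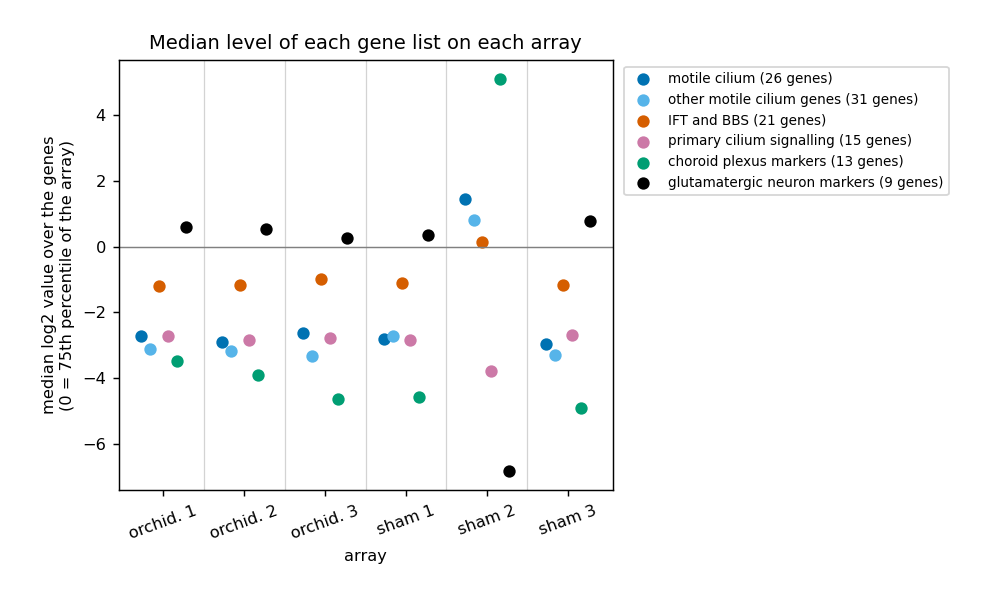
Points are the median log2 levels of each gene list on each array, where 0 is the array's 75th percentile. On sham 2 the motile list sits at 1.44 against -2.97 to -2.63 elsewhere and the IFT and BBS list at 0.13, above all other arrays, while choroid plexus markers are at 5.08 and neuron markers at -6.81.

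The series compared orchidectomized with sham-operated animals. Over all 6 arrays limma called 0 cilium probes at an adjusted p under 0.05 (Benjamini-Hochberg over 24635 probes), where it called 0 probes in all (0%) and 180 probes had an unadjusted p under 0.05. Of 51 tested cilium genes 0 had an unadjusted p under 0.05, beside 0.111% of 12634 genes higher and 0.617% lower. The median difference, orchidectomized minus sham, was -1.46 for 26 motile genes (4 higher, 22 lower) and -0.54 for 21 IFT and BBS genes (1 higher, 20 lower). With array weights these medians were -0.19 and -0.02. With a slide block they were -0.61 and 0.03, and with a scan-day block -0.36 and 0.03. In both blocks sham 1 was the only sham array that entered the difference. In the slide block orchidectomized 3 was likewise the only orchidectomized array, so its values compare 1 array with 1 array. The median of all tested genes was -0.03, with 46.9% higher and 53.1% lower. Groups did not overlap for 2 motile and 3 IFT and BBS genes in the lower direction, against 5.11% of all genes, and for 0 and 1 in the higher direction, against 2.94%. Foxj1 averaged -2.26 ± 0.41 (SD, n = 3) after orchidectomy and -0.05 ± 3.35 (SD, n = 3) after sham surgery, and the difference was -2.21 (SE 1.65, limma adjusted p 0.774). The smallest unadjusted p-values of the members belonged to Spag16, Rsph10b and Dnah1, whose differences of -0.86, -1.68 and -1.92 did not pass either (limma adjusted p 0.774 for each). Without sham 2 the differences of Spag16 and Dnah1 were -0.34 and -0.64. With normexp over 6 arrays Spag16, Rsph10b and Dnah1 differed by -0.08, -1.71 and -1.03.

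Without sham 2 the list medians lay near 0. The motile median was -0.05 (12 higher, 14 lower) and the IFT and BBS median 0.0038 (11 higher, 10 lower), beside -0.03 over 12863 genes, of which 43.6% were higher and 56.4% lower. Limma called 0 of 25212 probes (0%), and 682 had an unadjusted p under 0.05. Of the 51 tested cilium genes 0 reached that unadjusted level, beside 0.459% of all genes higher and 2% lower. Foxj1 averaged -2.26 ± 0.41 (SD, n = 3) against -1.97 ± 0.61 (SD, n = 2), a difference of -0.29 (SE 0.34, limma adjusted p 0.988), which turned to 0.14 when sham 1 was left out as well.

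Rsph10b, a radial spoke gene, had the smallest unadjusted p of the members without sham 2. Its levels were 0.93, 0.71 and 0.32 on the orchidectomized arrays and 1.03, 4.73 and 1.23 on sham 1 to 3. The groups did not overlap with or without sham 2, and the difference without it was -0.48 (SE 0.21, limma adjusted p 0.988). Bbs4 averaged 1.29 ± 0.04 (SD, n = 3) against 0.99 ± 0.18 (SD, n = 2), a difference of 0.30 (SE 0.14, limma adjusted p 0.988). Its groups did not overlap either on this probe, but they overlapped on the dimmer Bbs4 probe, which differed by 0.29. Spef2 differed by -0.47 (SE 0.25, limma adjusted p 0.988) with overlapping groups. Non-overlap without sham 2 was seen in 2 motile and 3 IFT and BBS genes in the lower direction, against 10.8% of all genes, and in 0 and 1 in the higher direction, against 5.85%. The probes of Bbs1 had opposite signs, 0.23 and -0.43.

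**Figure D4:**
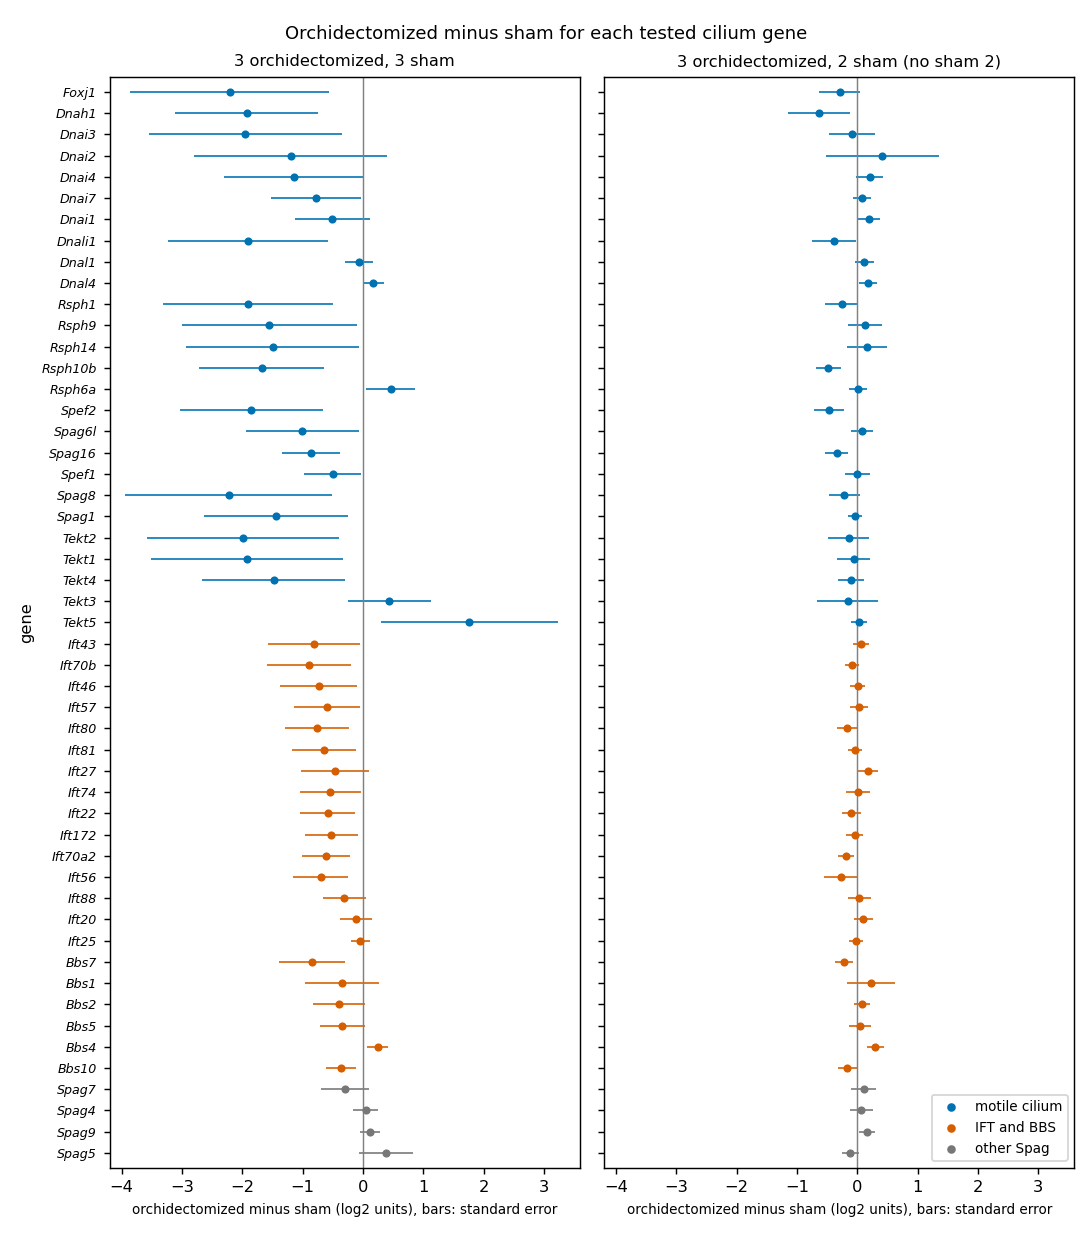
Points are orchidectomized minus sham differences (log2 units) of the tested cilium genes and bars are limma standard errors, over all 6 arrays on the left and without sham 2 on the right. On the left most motile genes lie below 0 with wide bars, Foxj1 at -2.21, and on the right the motile genes lie between -0.64 and 0.42.

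Among the 5 arrays other than sham 2, sham 1 and orchidectomized 3 lay at opposite ends for many motile genes. Sham 1 was the highest of the 5 for 13 of 26 (50%, against 28.3% of all genes) and orchidectomized 3 the lowest for 13 (50%, against 31.6%). Among the 31 further motile genes these arrays held 19 of the highest and 13 of the lowest levels. Orchidectomized 3 was also the highest of the 5 for 7 of 26 motile genes. For the IFT and BBS genes it was the highest in 11 of 21 (52.4%, against 33.4% of all genes) and the lowest in 7. The same arrays, named here after their ranks were seen, shared a slide. The slide values therefore repeat those levels and are no separate observation. On that slide 19 of 26 motile genes (73.1%) were lower on orchidectomized 3, against 53.5% of all genes. The median difference was -0.61 beside -0.04 over all genes, and Foxj1 differed by -1.19. On the first scan day, which held the orchidectomized arrays and sham 1, the motile median was -0.36. Both values rest on sham 1 as the lone sham array, and against sham 3 alone the motile median was 0.15. The IFT and BBS median was 0.03 on the slide and on the scan day. Choroid plexus markers had medians of -0.38 on the slide and -0.05 on the scan day, and ependymal markers outside the rule -0.49 and -0.30. Oligodendrocyte markers had -0.54 and -0.53, with 6 of 7 lower on the slide, glutamatergic neuron markers -0.47 and -0.05, with 8 of 9 lower on the slide, and astrocyte markers 0.09 and 0.03. Over all 5 arrays, orchidectomized minus sham, the choroid plexus median was 0.30, with 12 of 13 markers higher. Sham 3 was the lowest of the 5 arrays for 11 of those 13. The medians of ependymal, oligodendrocyte, glutamatergic neuron and astrocyte markers over the 5 arrays were -0.13, -0.34, -0.15 and 0.16. The part of these cell types in these values was not tested.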

How the data were processed

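Groups and replicate numbers came from the labels. Per the file headers, Feature Extraction 10.5.1.1 (Agilent) gave each spot a processed signal, an intensity from which background had been subtracted. The authors' deposited log2 table differs from the logarithm of that signal by 1 constant per array (-0.32 to 0.72, with column medians of 7.62 to 8.05), so its scale and direction are known and the origin of its centring is not. Control spots (1377 of 44254) and outlier spots were left out, spots of the same probe were averaged as log2, and the 75th percentile was taken off. Being well above background required this of 50% or more of a probe's spots. RefSeq named 18004 probes and left 12363 without a symbol.

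Orchidectomized and sham arrays were compared with limma 3.58.1 in R 4.3.3 (lmFit and eBayes, two-sided), using probes well above background throughout 1 or both groups; Spag6 and Spag11a did not pass. The steps were tested on simulated data. Levels on every array are given for Foxj1, for the 2 most and the 1 least different gene of each role on sham 2, and for the 3 smallest p-values of each fit. Tekt5 was added after its values were seen, as were the ranking of the 5 arrays and the choice of promoter windows. Members and lists were chosen with earlier results of these data known. Slide 1 held orchidectomized 1 and 2, slide 2 held orchidectomized 3 and sham 1, and sham 2 and sham 3, each alone on a slide, were scanned on the second day. Alternatives were normexp (offset 50, median signals), quantile and median scaling, the deposited values, 2 other filters, all probes of a list, array weights, replicate, slide and scan-day blocks, and leaving out each array.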

Additional observations from a re-analysis of the deposited data

How the results depend on the processing

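Over 6 arrays the count of called probes was 1 with quantile normalization and 13 with array weights, and it was 0 under each left-out array. Without sham 2 it was 2 with quantile normalization, 1 with median centring, 18 with the authors' deposited values and 10 with scan day as a block, and it ran from 0 to 251 when a further array was left out, with 22 without sham 1 and 251 without sham 3; 0 of these were motile, IFT or BBS probes. The motile median over 6 arrays ran from -2.24 to -0.05 over left-out arrays, the latter without sham 2, and was -0.19 with array weights, -0.61 with a slide block and -0.36 with a scan-day block. The IFT and BBS median ran from -0.83 to 0.0038, the latter without sham 2, and a slide block gave 0.032 and a scan-day block 0.030, and array weights -0.02. Without sham 2 the motile median ran from -0.36 to 0.15 over left-out arrays and a slide block gave -0.61 and a scan-day block -0.36, and the IFT and BBS median ran from -0.05 to 0.03. On sham 2 the motile median was 3.47 with normexp and 4.48 with median centring (4.11 to 4.27 over left-out arrays), and the IFT and BBS median was 1.63 with quantile normalization and 1.78 with median centring (1.46 to 1.58 over left-out arrays). Median centring moved the median of all genes on sham 2 to 0.30, and quantile normalization to 0.17. Foxj1 without sham 2 ran from -0.72 to 0.14 over left-out arrays. With slide or scan-day blocks the group difference rests on sham 1 as the only sham array, with or without sham 2 in the fit. With the slide block it rests on orchidectomized 3 as the only orchidectomized array as well. The cause of the other changes was not tested. With the replicate block the motile median was -1.46 over 6 arrays and -0.05 without sham 2, and 0 probes were called in both. Deviations of same-numbered arrays from their group means had correlations of 0.050, -0.0011 and -0.055. The sham mean included sham 2, which stood apart, so these values cannot show whether the numbers pair the samples. Without sham 2 the motile median turned to 0.09 with normexp, 0.0019 with quantile normalization and 0.0042 with the deposited values, and the IFT and BBS median to -0.05 with array weights and -0.0020 with normexp. Blocks and array weights do not apply to the description of sham 2.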
